A study of Mus musculus with 12 samples.

Results

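Accessible chromatin at 10 genes of axon guidance and neuronal adhesion was examined in mTEChi, the mature subset of the epithelial cells of the thymic medulla. These were the ligands Ntn1, Slit2 and Draxin, the receptors Dcc, Robo1, Robo3 and Ephb2, and the leucine-rich repeat adhesion proteins Flrt1, Amigo1 and Lingo1, out of 21631 protein-coding genes. A peak belonged to a gene when it lay inside the gene's annotated span or within 1 kb of either end of it. The genes were picked by name with earlier results of these libraries in view, and the presence of peaks at the gene ends of Flrt1, Amigo1, Robo3, Draxin and Ephb2 was among those results. Presence, width and strength are therefore given as a description and without a test.

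The cells came from C57BL/6 mice of 4 to 7 weeks and were profiled by ATAC-seq, which records where a transposase can insert into chromatin. Each of 3 contrasts had 2 mutant and 2 wild-type libraries: Aire -/- against Aire +/+, Aire +/C313Y against Aire +/+, and Aire +/C442G against Aire +/+. The C313Y and C442G mice carried 1 changed and 1 normal copy of Aire, and the label Aire -/- does not say which part of the gene was removed. Wild types were assigned to their mutants by the form of the library titles, and no label says that libraries of a group came from separate animals. Files held peak lists and no read counts, so the depth behind each list is unknown and a missing peak means not called at that depth. The lists held 34047 to 122326 peaks. An exact two-sided permutation test of 2 libraries against 2 cannot go below p = 0.333.

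Netrins and Slits are secreted cues that steer growing axons toward or away from the midline of the nervous system. DCC is the attractive netrin receptor, ROBO1 is a Slit receptor, and EPHB2 is a receptor tyrosine kinase for ephrin-B ligands on neighbouring cells. AIRE, the autoimmune regulator, drives the expression of many genes of peripheral tissues in these thymic cells, so that developing T cells meet the proteins there. A peak at such a gene shows open chromatin and does not show that the gene is transcribed.

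Promoter sequences are shown for 4 of the genes, from a start-site region called in every library to start-site regions called in some libraries of each kind. Among those not shown, the Robo3 promoter overlapped no peak and 1 Lingo1 promoter a peak of 1 library. The sequences are the 250 bases before the transcription start from the RefSeq promoter table (GRCm38.p6, which shares coordinates with mm10), written 5′ to 3′ on the gene's strand. Capitals mark bases inside a region merged from the peaks of the 12 libraries, and the number of libraries with a peak in it is given for each. Slit2 lies at chr5:47982905-47983154 (plus strand, 12 libraries), Amigo1 at chr3:108186039-108186288 (plus, 7 libraries), Draxin at chr4:148130699-148130948 (minus, 5 libraries) and Ephb2 at chr4:136836013-136836262 (minus, 6 libraries).
Slit2: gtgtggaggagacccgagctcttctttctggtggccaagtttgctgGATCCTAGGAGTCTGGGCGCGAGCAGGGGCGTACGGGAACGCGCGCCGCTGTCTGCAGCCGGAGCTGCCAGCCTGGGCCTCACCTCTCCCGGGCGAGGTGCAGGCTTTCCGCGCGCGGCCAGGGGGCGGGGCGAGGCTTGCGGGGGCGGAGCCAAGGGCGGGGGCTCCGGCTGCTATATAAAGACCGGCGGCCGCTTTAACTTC
Amigo1: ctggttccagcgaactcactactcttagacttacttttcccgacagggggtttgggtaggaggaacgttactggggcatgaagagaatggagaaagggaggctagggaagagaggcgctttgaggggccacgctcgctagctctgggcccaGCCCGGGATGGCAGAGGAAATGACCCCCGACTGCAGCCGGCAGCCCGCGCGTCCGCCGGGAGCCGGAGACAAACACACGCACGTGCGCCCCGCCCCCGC
Draxin: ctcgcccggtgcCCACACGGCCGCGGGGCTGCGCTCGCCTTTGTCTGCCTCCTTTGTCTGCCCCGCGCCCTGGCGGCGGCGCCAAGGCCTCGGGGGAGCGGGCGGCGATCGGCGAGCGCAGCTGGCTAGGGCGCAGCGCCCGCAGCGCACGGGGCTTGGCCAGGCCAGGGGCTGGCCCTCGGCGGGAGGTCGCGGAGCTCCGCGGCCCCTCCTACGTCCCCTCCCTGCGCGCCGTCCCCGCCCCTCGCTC
Ephb2: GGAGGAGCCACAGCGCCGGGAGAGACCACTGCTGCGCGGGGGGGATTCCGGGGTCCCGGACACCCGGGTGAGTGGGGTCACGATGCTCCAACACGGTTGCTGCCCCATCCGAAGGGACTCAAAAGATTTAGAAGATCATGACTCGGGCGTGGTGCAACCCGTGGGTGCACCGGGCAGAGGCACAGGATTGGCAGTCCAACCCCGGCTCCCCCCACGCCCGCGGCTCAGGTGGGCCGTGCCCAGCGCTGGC

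All 4 promoters are rich in CpG. In the table's full 300 bases, which run to 50 bases after the start, CpG numbered 30 for Slit2, 35 for Amigo1, 39 for Draxin and 24 for Ephb2, against a median of 7.00 and an upper quartile of 20 over 32619 promoters. The hexamer GGGCGG, searched on both strands, matched 3 times in Slit2, 2 times in Amigo1, 2 times in Draxin and 0 times in Ephb2, and 35.9% of all promoters held it. TATAAA matched in Slit2 alone of these 4, and in 13.7% of all promoters. TGANTCA matched in none of the 4, and in 7.85% of all promoters. Of the other members, Robo1, Robo3 and Lingo1 were also in the table, and the Robo1 promoter was the least CpG-rich, with 15 CpG and no GGGCGG. A start-site region called in 12 of 12 libraries was found both at Slit2 and at Robo1, the one with the fewest CpG.

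Slit2, the ligand of ROBO receptors (chr5:47981291-48307735), had a peak in the region across this start site in 12 of 12 libraries. In Aire -/- replicate 2, both wild types of the Aire -/- contrast and C313Y replicate 3 the peak ended before the start itself. The region chr5:47982951-47983224 spans from 204 bases before to 69 bases after the start. Its peaks were 128 and 151 bp wide in the Aire -/- libraries against 114 and 91 bp in their wild types. Widths were 181 and 99 bp with C313Y against 138 and 214 bp in wild types, and 169 and 214 bp with C442G against 184 and 134 bp. The groups overlapped in the C313Y and C442G contrasts, and in the Aire -/- contrast both mutant peaks were the wider ones. The authors' fold enrichment over background was 3.64 and 3.39 in Aire -/- lists and 3.60 and 5.57 in their wild types. It was 5.47 and 4.07 with C442G and 6.17 and 6.30 in its wild types. Here and below, folds of different lists stand side by side as description only. The lists differ in length and their depth is unknown, so a difference in fold between lists is not read as a difference in accessibility. No peak of Slit2 lay within 1 kb of an end of its annotated span, because this start site lies 1864 bp inside it. The remaining 9 regions of Slit2 were called in 1 to 6 libraries.

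Netrin-1, encoded by Ntn1 (chr11:68209364-68386826), had a region across its higher-coordinate end, chr11:68386716-68387098, that was called in 10 of 12 libraries. The peak there was 123 bp wide in Aire -/- replicate 1 and not called in replicate 2, against 109 bp in wild-type replicate 1 and none called in replicate 2. They were 279 and 134 bp wide with C313Y against 383 and 95 bp in wild types, and 266 and 154 bp with C442G against 152 and 243 bp. The end was called in each genotype, and mutant and wild-type widths overlapped in the C313Y and C442G contrasts. A second region inside the gene, chr11:68244726-68245380, was called in 11 of 12, missing in wild-type replicate 2 of the Aire -/- contrast. Most other Ntn1 regions, 10 of 15, were seen in a single library.

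Draxin, which encodes a repulsive guidance protein that binds DCC (chr4:148098437-148131139), had its most widely shared region inside the gene, at chr4:148114853-148115033, in 11 of 12 libraries. The authors' fold there was 9.53 and 11.8 in Aire -/- lists, 6.31 in one of their wild types, 11.2 and 18.8 with C442G and 11.1 and 11.2 in its wild types. The promoter region printed above was called in 5 libraries. With C442G it had no peak in either heterozygote library against peaks of 84 and 344 bp in both wild types, with folds of 4.35 and 4.11. In the other contrasts it was called in 1 mutant library each (191 bp in Aire -/- replicate 2 and 151 bp in C313Y replicate 2), against none of the wild types of Aire -/- and 114 bp in wild-type replicate 2 of C313Y. The fold of 2.94 in Aire -/- replicate 2 stood above 0.701% of the peaks of its list by −log10 p. Draxin shares this window with the neighbouring gene Mad2l2.

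Among the receptors, Robo1 (chr16:72027518-73047491) held the most peaks, and 5 of its 85 regions were called in 12 of 12 libraries. One of these, chr16:72662887-72663789, covers the annotated start site of the promoter table, which lies 636 kb inside the span, and no Robo1 peak lay within 1 kb of an end of the span. Single peaks of 721 and 745 bp covered it in Aire -/- cells, against 2 separate peaks of 166 and 244 bp in wild-type replicate 1 and a single peak of 607 bp in wild-type replicate 2. Widths were 747 and 534 bp with C313Y against 661 and 739 bp, and 901 and 817 bp with C442G against 886 and 854 bp. Each of the 2 Aire -/- peaks was wider than any of the 3 wild-type peaks there, and the groups overlapped in the other contrasts. The folds, taken from the strongest peak of a library in the region, were 5.27 and 5.92 in Aire -/- lists and 3.91 and 4.24 in their wild types, 6.38 and 6.51 with C442G and 5.36 and 5.83 in its wild types. Another of the 5, chr16:72679076-72679424, was centred 16101 bp past the start, with folds of 10.8 and 10.6 in Aire -/- lists and 4.70 and 6.12 in their wild types, 14.9 and 11.8 with C442G and 10.8 and 10.8 in its wild types.

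**Figure D1:**
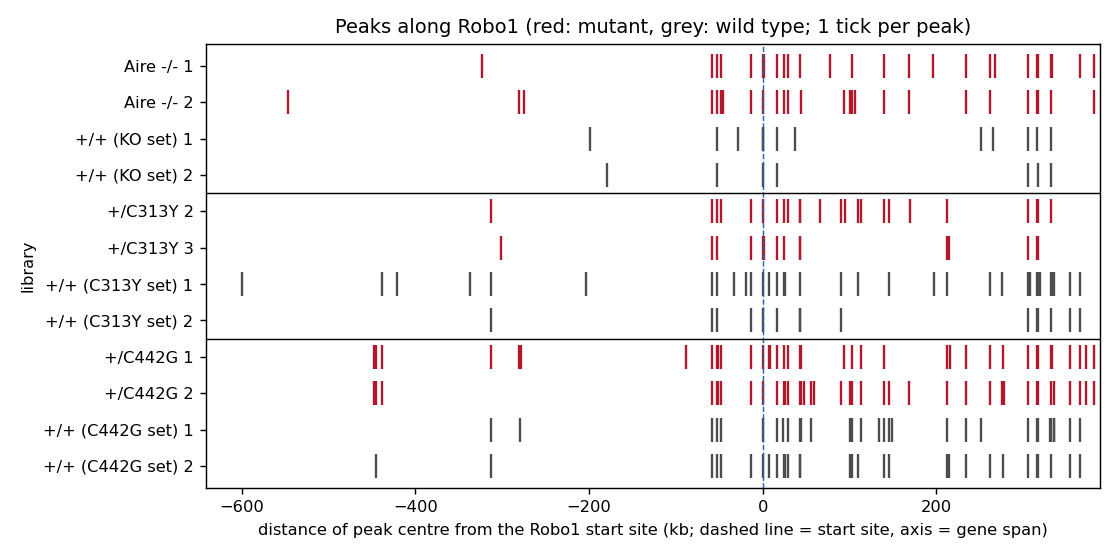
Position of every Robo1 peak by library: the x axis is the distance of the peak centre from the start site in kb over the gene span, rows are the 12 libraries, and each tick is 1 peak. Ticks crowd within 100 kb of the start and past it, and the part more than 100 kb before the start holds 1 to 6 peaks per library.

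Along Robo1 the peaks were unevenly spread, as the map of its peaks shows. More than 100 kb before the start site each library had 1 to 6 peaks, within 100 kb 3 to 16, and more than 100 kb after it 3 to 21. Within 100 kb the Aire -/- libraries had 11 and 12 peaks against 6 and 3 in their wild types, C313Y heterozygotes 13 and 9 against 12 and 8, and C442G heterozygotes 15 and 16 against 11 and 13. Near the far end of the gene, chr16:73044147-73044427 was called in both Aire -/- and both C442G libraries and in none of the 6 wild types. Its folds were low, 3.09 and 4.00 in Aire -/- lists and 3.15 and 3.82 in C442G lists. In the same part of the gene, chr16:73016774-73017576 and chr16:73028694-73029211 were called in both wild types and neither heterozygote of the C313Y contrast, and in all 4 libraries of the C442G contrast.

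ROBO3, which lets commissural axons cross the midline, is encoded by a short gene (chr9:37416045-37433436) with 4 regions, of which 3 were called in 11 or 12 libraries. The region called in all, chr9:37420678-37421037, carried folds of 8.42 and 9.39 in Aire -/- lists against 7.04 and 4.95 in their wild types, and 9.41 and 9.31 with C442G against 7.05 and 10.2. The second, chr9:37430669-37430844, was called in 11 libraries, with folds of 6.58 and 8.74 in Aire -/- lists against 5.41 in 1 of their wild types.

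Robo3 counts as gained at a gene end with C442G, and this count turned on the edge of the 1 kb window. The region chr9:37432165-37432508, which lies 667 to 1010 bases after the start site, was called in 11 of 12 libraries and in all 4 of this contrast. Its peaks were 344 and 297 bp wide with C442G against 178 and 162 bp in wild types. The heterozygote peaks came within 928 and 968 bp of the annotated end, just inside the limit, and the wild-type peaks within 1089 and 1100 bp, just outside it. In Aire -/- cells the same peaks were 142 and 76 bp wide, against none and 90 bp in wild types, and with C313Y they were 320 and 196 bp wide against 97 and 166 bp. In the C313Y and C442G contrasts both mutant peaks were wider than both wild-type peaks, and in the Aire -/- contrast they were not. What differed in the C442G contrast was the width of a shared peak. When a library was counted by any peak in the merged region, an alternative chosen after seeing the data, Robo3 was not gained.

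Dcc, encoding the netrin receptor (chr18:71253613-72351228), spanned 1098 kb and had few peaks for its length. There were 5 and 10 peaks in Aire -/- libraries against 3 and 0 in their wild types, 8 and 2 with C313Y against 10 and 2, and 12 and 8 with C442G against 5 and 4. In each library 0% to 13.8% of the 2427 genes of at least 100 kb had fewer peaks per 100 kb. The region across its higher-coordinate end, chr18:72350995-72351315, was called in 5 libraries and went opposite ways in the heterozygotes. With C313Y neither heterozygote had it, against peaks of 236 and 96 bp in both wild types. With C442G both heterozygotes had it, at 172 and 109 bp, against no peak in either wild type. In Aire -/- replicate 2 it was 308 bp wide, replicate 1 had a separate peak 664 bp beyond the end, and neither wild type had one. A region inside the span, chr18:71708621-71709403, was shared more widely, in 10 of 12 libraries, with both wild types of the Aire -/- contrast lacking it.

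Ephb2 (chr4:136647536-136836326) was the one member called lost at a gene end in Aire -/- cells. Its start-site region, chr4:136835877-136836266, is printed above in part. It had no peak in either Aire -/- library against 321 and 111 bp in their wild types. The Aire -/- lists held 85826 and 94976 peaks and the wild-type lists 34715 and 34047. The reason for the missing peaks was not tested. The 111 bp peak, chr4:136835877-136835987, lay past the start site and outside the printed bases. The wild-type peaks were weak within their lists, with folds of 3.64 and 4.01 that stood above 10.3% and 27.3% of the other peaks by −log10 p. With C313Y it was called in 1 heterozygote (143 bp) against 1 wild type (333 bp), and with C442G in 1 heterozygote (271 bp) against 1 wild type (107 bp). In all, 2 of 6 mutant and 4 of 6 wild-type libraries had it. The loss was not called with a −log10 q of at least 3, with all 6 wild types as controls or at a distance of 2500 bp. Deep inside the gene, chr4:136678579-136678850 was called in 11 of 12 libraries, and chr4:136802515-136802805 in 10 of 12, with both wild types of the Aire -/- contrast lacking it.

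The adhesion genes had their gene-end peaks in more mutant than wild-type libraries, and the 3 shared nearly one pattern. Flrt1, whose product binds latrophilins and UNC5 receptors (chr19:7087464-7166183), had the region chr19:7165710-7166203 at its higher-coordinate end called in 7 libraries. Its peaks were 148 and 286 bp wide in Aire -/- cells against none in wild types, 390 and 451 bp with C313Y against none, and 298 and 216 bp with C442G against 167 bp in 1 wild type. The peaks with C313Y stood above 84.7% and 89.7% of their lists by width. Those of the other lists were weak by the authors' scores, with folds of 3.08 and 3.62 in Aire -/- and 2.98 and 2.96 with C442G against 3.54 in the 1 wild type. Ranks by width and strength by score are unlike measures, so the C313Y peaks cannot be called stronger than these. The other C442G wild type had a 74 bp peak 989 bp from this end, so Flrt1 had a gene-end peak in all 4 libraries of that contrast. The Flrt1 span overlaps the gene Macrod1, and a peak there cannot be given to either gene.

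Amigo1, whose product is an adhesion protein that promotes neurite outgrowth (chr3:108186289-108192286), had peaks in its start-site region in the same 7 libraries. They were 229 and 328 bp wide in Aire -/- cells and 385 and 402 bp with C313Y, against none in the wild types of either contrast. With C442G they were 396 and 78 bp wide against 385 bp in 1 wild type, and the other wild type had a separate peak of 112 bp 411 bp from the gene end. The folds were 3.74 and 3.62 in Aire -/- lists, and 3.67 and 4.45 with C442G against 3.52. The 328 bp peak of Aire -/- replicate 2 began 39 bp past the start site and outside the printed bases. All other Amigo1 peaks amounted to 1 further region, in Aire -/- replicate 2.

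Lingo1, a subunit of the Nogo receptor complex (chr9:56618460-56796310), had the region chr9:56795687-56795997 just inside its upstream start site. Peaks there were 211 and 231 bp wide in Aire -/- cells and 202 and 160 bp with C313Y, against none in the wild types of either contrast, and 163 and 311 bp with C442G against 93 bp in 1 wild type. The folds with C442G were 4.53 and 5.12 against 3.30. A separate peak further out, beyond the 1 kb window, was called in all mutant libraries and in most wild types. It lay 1770 bp from this end in wild-type replicate 2 of the Aire -/- contrast, and 1760 and 1754 bp from it in the C313Y wild types. Around the second start site of the table, 17.2 kb inside the span, a region upstream of it, chr9:56636306-56636560, was called in 12 of 12 libraries. Its folds were 7.02 and 6.33 in Aire -/- lists against 6.40 and 5.48 in their wild types, and 11.4 and 9.47 with C442G against 6.59 and 7.52. Its peaks there were 95 to 233 bp wide over the 12 libraries.

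**Figure D2:**
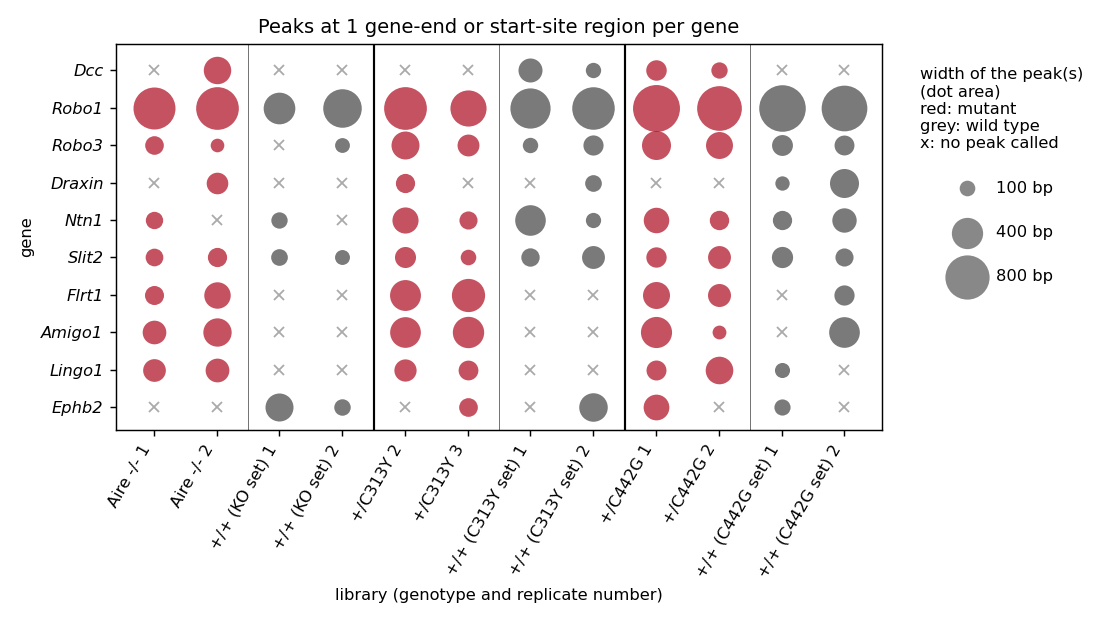
For each gene (rows) the gene-end or start-site region called in the most libraries, by library (columns, mutants left of their wild types): dot area is the width of the peak in bp (for Robo1 in wild-type replicate 1 of the Aire -/- contrast the sum of 2 peaks), and a cross means that no peak was called. Robo1 and Slit2 are filled in all 12 columns, Flrt1, Amigo1 and Lingo1 in all 6 mutant columns and 1 wild-type column each, and Ephb2 in 2 mutant and 4 wild-type columns.

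Counted over the 10 genes, 4 gained a gene-end peak in Aire -/- cells (Dcc, Flrt1, Amigo1 and Lingo1), where gained means a peak in both mutant libraries and in neither wild type. The share of all 21631 genes gained in that contrast was 5.21%, and the share lost, with Ephb2 as the 1 lost member, was 0.0277%. With C313Y 3 members were gained (Flrt1, Amigo1 and Lingo1) against a background of 0.846%, and 1 was lost (Dcc) against 0.370%. With C442G 2 were gained (Dcc and Robo3) against 0.897%, and 1 was lost (Draxin) against 0.291%. In Aire -/- cells 0 members were gained with a −log10 q of at least 3, 0 with lists of equal length and 0 with all 6 wild types as controls, and the Ephb2 loss was not called with that q minimum, with all 6 wild types or at a distance of 2500 bp. With all 6 wild types as controls C313Y had 0 gained and 0 lost, and C442G had 1 gained and 0 lost. At a distance of 500 or 2500 bp 3 members were gained in Aire -/- cells, and at 2500 bp 2 with C313Y. The C442G loss was also not called with the q minimum. These calls were part of how the genes were picked, so nothing is read from the difference. No member had a gene-end peak in all 12 libraries. A gene called gained or lost at its ends cannot have one in every library. The start sites of Robo1 and Slit2 lie more than 1 kb inside their spans. This count is therefore not read against the 46.6% of all genes with a gene-end peak in all 12, Aire among them.

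Over whole gene spans, the 10 genes had more peaks in both mutant than in both wild-type libraries in the Aire -/- and C442G contrasts, and not in the C313Y contrast. They held 79 and 84 peaks in Aire -/- libraries against 30 and 26 in their wild types, a ratio of means of 2.91 where all peaks gave 2.63. With C313Y they held 76 and 43 against 88 and 46, a ratio of 0.888 against 1.03 for all peaks, and the groups overlapped. C442G heterozygotes had 112 and 107 against 81 and 82, a ratio of 1.34 against 1.26. Per 1000 peaks of the list the values were 0.920 and 0.884 in Aire -/- against 0.864 and 0.764, 1.0 and 0.751 with C313Y against 1.19 and 0.823, and 0.916 and 0.930 with C442G against 0.865 and 0.868. With lists reduced to equal length within a contrast, to the strongest peaks or for C313Y the widest, the order in the Aire -/- contrast turned round: 22 and 20 peaks in Aire -/- against 29 and 26 in wild types. With C442G 83 and 81 stood against 81 and 79, and with C313Y 48 and 43 against 69 and 46.

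**Figure D3:**
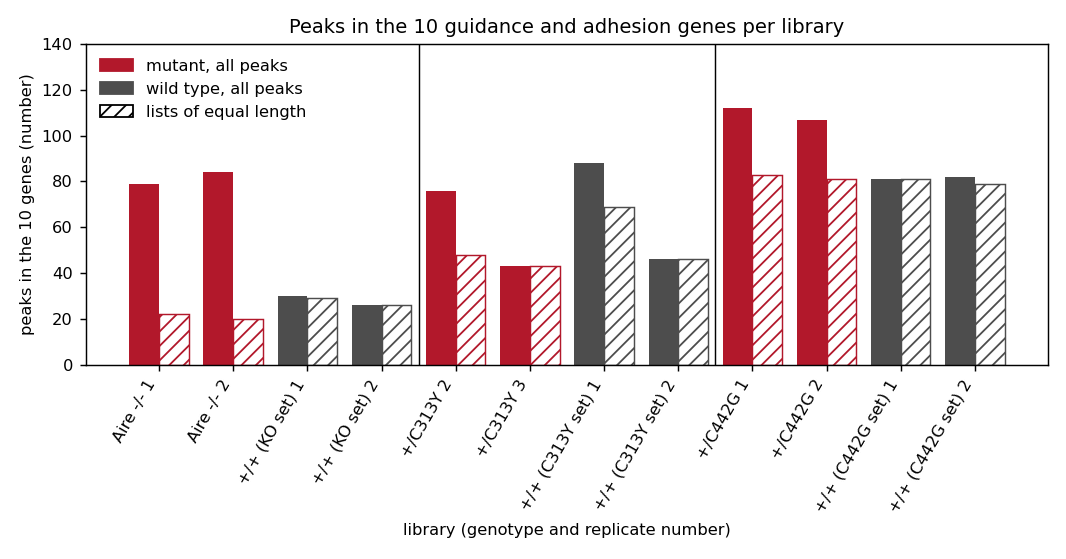
Number of peaks in the 10 genes per library (y axis) for the deposited lists (filled bars; red mutant, grey wild type) and for lists of equal length within each contrast (hatched bars). The Aire -/- libraries fall to 22 and 20 with lists of equal length, under the 29 and 26 of their wild types.

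By gene, 8 members had more peaks in both Aire -/- libraries than in either wild type, where 37.0% of all genes did. Draxin had 3 and 4 peaks in Aire -/- against 1 and 1, Lingo1 13 and 17 against 4 and 7, and Flrt1 9 and 8 against 2 and 1. Robo3 (3 and 4 against 1 and 3) and Slit2 (3 and 3 against 2 and 3) overlapped. Long genes show this more often: among the 2427 genes of at least 100 kb the share was 86.4%. With C442G 5 members did so (Dcc, Robo1, Slit2, Flrt1 and Lingo1), against 17.2% of all genes and 53.9% of the long ones. With C313Y 1 did (Amigo1), against 6.73% of all genes. No member had fewer peaks in both mutant libraries than in either wild type in any contrast, a count of 0.162% of all genes for Aire -/-, 2.11% for C313Y and 1.45% for C442G. Lingo1 was dense for its length in every library, above 73.9% to 92.4% of the long genes in peaks per 100 kb, and Ephb2 varied most, from 30.3% to 89.7%.

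**Figure D4:**
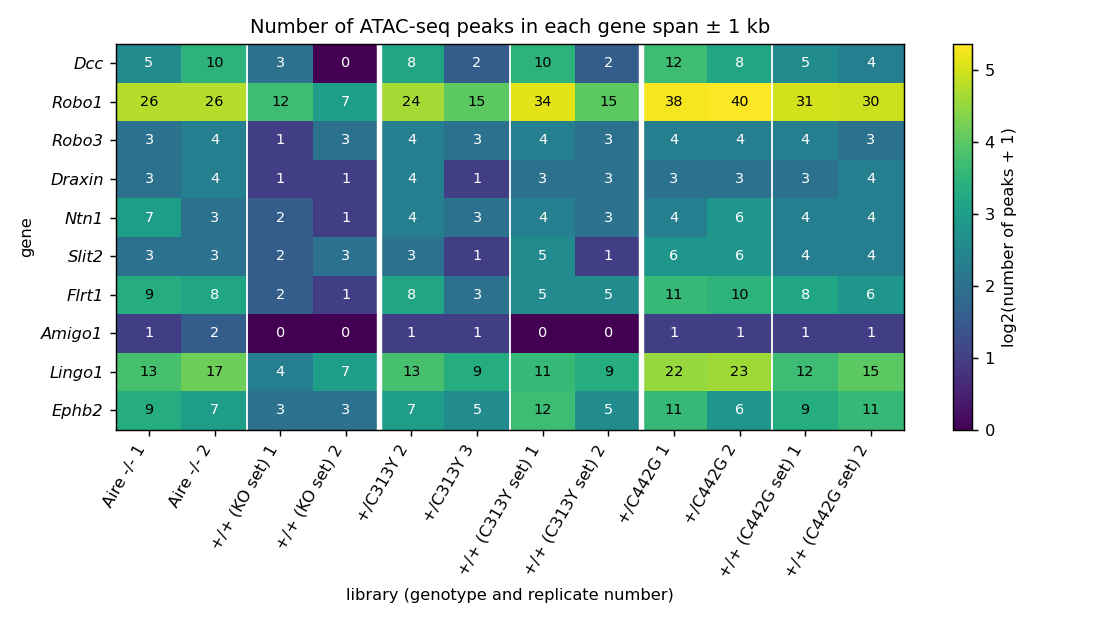
Number of peaks in the span of each gene ± 1 kb (rows) by library (columns, mutants left of their wild types); the printed value is the number of peaks and the colour its log2 after adding 1. Robo1 and Lingo1 hold the most peaks, and the columns of the Aire -/- wild types are the lowest for most genes.

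Merged over all 12 lists the genes held 247 regions, 129 of them (52.2%) in a single library and 9 (3.64%) in all 12. Over regions at any protein-coding gene these shares were 40.9% and 10.9%. The 9 regions belonged to Robo1 (5), Lingo1 (2), Robo3 (1) and Slit2 (1). Of the 129, wild-type replicate 1 of the C313Y contrast alone gave 29 and the 2 Aire -/- libraries 19 and 14. That C313Y wild type stood apart from its partner, with 88 against 46 peaks in the 10 genes.

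Within the Aire -/- contrast 29 of 128 regions of these genes were gained and 1 was lost, 22.7% and 0.781% against 20.1% and 0.0839% of all regions. Robo1 held 12 of the gained regions, Flrt1 5 and Lingo1 4. The lost region was the Ephb2 start site. Of the 29, 25 had a peak in at least 1 wild type of the other contrasts. With C313Y 5 of 127 were gained and 3 lost, 3.94% and 2.36% against 4.43% and 1.34% of all regions. With C442G 13 of 161 were gained and 1 lost, 8.07% and 0.621% against 7.09% and 1.01%, and 9 of these 13 had no peak in any wild type of the other contrasts. The shares gained lay near those of all regions in each contrast. How many of all gained regions had a peak in other wild types was not counted. The 25 and the 9 are therefore not read as a trait of these genes. Without wild-type replicate 2 the C313Y loss came to 42 regions, and without C313Y replicate 3 the gain came to 27. With lists of equal length the gain in Aire -/- fell to 3 regions and the gain with C442G to 6.

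Across the contrasts 6 regions of these genes were called in at least 3 of the 6 mutant libraries and in no wild type, 2.43% of their regions against 3.12% of all 228401. The one called in the most libraries was chr19:7092889-7092999 inside Flrt1, in 5 of 6 mutant libraries. Its peaks were 87 and 94 bp wide in Aire -/-, 89 bp in C313Y replicate 2 and 99 and 97 bp with C442G, and the wild types had none. The folds were 3.60 and 4.70 in Aire -/- lists and 4.01 and 4.02 with C442G. The others lay in Robo1 (2), Dcc (2) and Lingo1 (1), each in 3 or 4 mutant libraries. No region of these genes had the reverse pattern, which 0.108% of all regions had.

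Of 107 other genes of guidance and neuronal adhesion, 40 had a gene-end peak in all 12 libraries and 10 in none. Over all protein-coding genes, 46.6% had one in all 12 and 25.8% in none. In Aire -/- cells 9 of them were gained and 0 lost (8.41% gained, against 5.21% of all genes), with Rgmb, a co-receptor of bone morphogenetic proteins, and Cntn1, a contactin of axons, ranking highest by peak strength, then the semaphorin receptor Plxna4 and the adhesion molecule L1cam. With C313Y 3 were gained, the ephrin-A ligands Efna5 and Efna1 and the semaphorin Sema3a, and the contactin Cntn3 was lost (2.80% and 0.935%, against 0.846% and 0.370% of all genes). With C442G 3 were gained, Dscaml1, Flrt2 and the semaphorin receptor Plxnc1, and 0 lost (2.80% gained, against 0.897%). The 107 genes were listed with earlier results of these data known, and no other setting was run on them. No excess is therefore read from these shares. By group, gains in Aire -/- came to 2 of 19 further leucine-rich repeat genes, 2 of 13 immunoglobulin-type adhesion genes, 2 of 11 plexins and neuropilins, 1 of 8 ephrins, 1 of 9 netrin and Slit receptors and 1 of 7 other cues, and to 0 of 7 ligands of the netrin and Slit families, 0 of 20 semaphorins and 0 of 13 Eph receptors.

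The gene-end pattern over the 12 libraries was compared with that of the 107 genes by the number of libraries that differ. At most 3 genes are named per member, with ties taken in alphabetical order, so others may be equally near. Flrt1 and Amigo1 had the same pattern as each other, which each shared with 34 other genes among all protein-coding genes. Cntn1, Efna1 and Efna5 differed from it in 1 library. Lingo1 was closest to the same 3 genes, at 2 libraries. Robo3 had the pattern of Dscaml1 and differed from Flrt2 in 1 library. Dcc was closest to Amigo2 and Unc5a (3 libraries each) and Draxin to Ncam1, Nrcam and Slit3 (3 each). Ephb2 had no near match, with 5 libraries different for Dscam, Sema6b and Sema6d, and no other gene of the genome shared its pattern.

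Markers of the sorted cells and of others were read in the same way, as genes with a gene-end peak per library. Of 12 genes of mature medullary epithelium 7 and 9 had one in Aire -/- libraries against 6 and 5 in wild types, 11 and 8 with C313Y against 10 and 10, and 10 and 10 with C442G against 10 and 11. Aire had one in 12 of 12. Of 8 neuronal and neuroendocrine genes there were 8 and 8 in Aire -/- libraries against 6 and 5 in wild types, 8 and 6 with C313Y against 7 and 8, and 8 and 7 with C442G against 7 and 7. Thymocyte genes numbered 0 to 2 of 7 per library, with 4 at 0 in every library, and endothelial genes 0 to 2 of 6, with 3 at 0. Cortical epithelial genes numbered 3 to 4 of 6 and Schwann cell genes 2 to 4 of 5. Of 6 fibroblast and mural genes there were 4 and 5 in Aire -/- libraries against 2 and 1 in wild types, 3 and 3 with C313Y against 5 and 4, and 4 and 6 with C442G against 6 and 4. Of 7 dendritic cell and macrophage genes there were 5 and 4 in Aire -/- libraries against 2 and 2 in wild types, 3 and 3 with C313Y against 4 and 3, and 5 and 4 with C442G against 5 and 5. The wild-type lists of the Aire -/- contrast were the shortest, with 34715 and 34047 peaks against 85826 and 94976. The share of all genes with a gene-end peak was not computed per library. These counts are therefore not read as a difference in cell types. The part of other cells in the peaks of the 10 genes was not tested.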

How the data were processed

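The authors deposited 1 peak list per library. MACS2, Picard, Bowtie2 and cutadapt appear in the submitters' processing notes, with mm10 as the build and no version. Of the deposited lists, 8 give per peak a score, the fold enrichment as a ratio over background, and the −log10 p and −log10 q of the authors' caller, with a lowest −log10 q of 1.0. The 4 lists of the C313Y contrast give positions only, other values being absent, so peaks there were ranked by width. How reads were shifted, whether duplicates were removed and what control was used: not given in the sources used here. Depth is unknown.

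Only peaks of chromosomes 1 to 19 and X entered the counts. Peaks that overlapped by at least 1 bp were merged into regions, over the 4 lists of a contrast or all 12, and a library had a region when it had a peak there. Gained meant called in both mutants and no wild type of the contrast, and lost the reverse. Replicate lists overlapped at Jaccard indices of 0.385 to 0.545 in base pairs. Gene spans were those of RefSeq for GRCm38.p6, without strand or exons, and 7 of the 10 members matched the promoter table. Counting used Python 3.11.15 and numpy 2.4.6. Only the calls of gene ends gained and lost were checked on simulated lists, with planted peaks. Members and gene lists were chosen with earlier results of these data known. Named genes were the 10 members, up to 4 gained and 4 lost genes of the pathway lists per contrast by peak rank, and the 3 nearest in pattern. Other settings tried were a −log10 q minimum of 3, equal list lengths, an overlap of 50%, all 6 wild types as controls, distances of 500 and 2500 bp, and each replicate left out. A rule that 50% of a region be covered and one that a merged region reach the window were added after seeing the data.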

Additional observations from a re-analysis of the deposited data

Results flagged for a closer look

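At the higher-coordinate end of Dcc the region called in 5 of 12 libraries went opposite ways in the heterozygotes: neither C313Y heterozygote and both of its wild types had it, while both C442G heterozygotes and neither of their wild types had it. Counted as any peak within 1 kb of a gene end, Dcc had one in 6 of 12 libraries, gained in Aire -/- and C442G cells and lost with C313Y. The difference between contrasts was not tested. In the same C313Y contrast 3 of 6 fibroblast and mural genes lost a gene-end peak and 1 (Pdgfrb) gained one, where 0.370% of all genes were lost and 0.846% gained. The part of these genes in the Dcc result was not tested.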

How the results depend on the processing

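Of 97 values recomputed with another setting (replicates left out apart), 57 stayed within 1.5 times the reported count, or within the spread between replicates for peaks per library, and 40 moved. The cause was not tested, except where the setting itself removes peaks or adds controls. With a −log10 q of at least 3, regions gained in Aire -/- came to 13 in place of 29 and with C442G to 8 in place of 13, C442G losses to 2 regions, and regions in all 12 libraries to 3 in place of 9. Gene-end calls then came to 0 gained and 0 lost in Aire -/- and to 0 lost with C442G. With lists of equal length regions gained came to 3 in Aire -/- and 6 with C442G, regions lost to 3 in Aire -/-, 6 with C313Y and 3 with C442G, regions in all 12 to 2, and gene ends to 0 gained in Aire -/- and 2 lost with C442G. Peaks of the 10 genes then came to 22 and 20 in Aire -/- libraries, 48 in C313Y replicate 2, 83 and 81 with C442G and 79 in C442G wild-type replicate 2. With all 6 wild types as controls regions gained came to 4 in Aire -/- and 0 with C313Y, regions lost to 0 in each contrast, gene ends gained to 0 in Aire -/-, 0 with C313Y and 1 with C442G, and gene ends lost to 0 in each contrast. Gene ends gained with C442G came to 1 under a distance of 500 bp, 1 under 2500 bp, 1 under an overlap of 50% and 1 where a merged region had to reach the window, also added later. The Ephb2 loss went at 2500 bp (0 lost). With at least 50% of the region covered by peaks, a rule added after seeing the data, regions lost came to 1 with C313Y, 0 with C442G and 0 in Aire -/-. For regions an overlap of 50% changes nothing by construction, since a peak lies wholly inside its merged region.

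With each replicate left out in turn, regions gained ranged from 35 to 59 in Aire -/-, 7 to 27 with C313Y and 19 to 34 with C442G, and regions lost from 1 to 12 in Aire -/-, 4 to 42 with C313Y and 3 to 13 with C442G. Gene ends gained ranged from 4 to 5 in Aire -/-, 3 to 4 with C313Y and 2 to 3 with C442G, and gene ends lost were 1 in Aire -/-, 1 to 2 with C313Y and 1 with C442G. A group of 1 library makes every call easier to meet. Gains moved by more than 1.5 times without Aire -/- replicate 1 (59) or 2 (53), C313Y replicate 2 (9) or 3 (27), C313Y wild-type replicate 1 (9), C442G replicate 1 (34) or 2 (31) and C442G wild-type replicate 2 (27). Losses did so without the Aire -/- wild-type replicate 1 (6) or 2 (12), C313Y replicate 2 (11 regions and 2 gene ends), C313Y wild-type replicate 1 (6) or 2 (42), C442G replicate 1 (3) or 2 (3) and C442G wild-type replicate 1 (11) or 2 (13). No paired analysis was possible because the results are counts without a test, and a call that asks for both mutants and neither wild type is the same for either pairing of the replicate numbers. The q minimum could not be run on the C313Y lists, which hold no q. Peak lists without read counts limit every value: presence near the caller's threshold depends on a depth that is unknown here.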
